A study of Homo sapiens with 2 samples.

Results

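SWI/SNF complexes, in human cells also called BAF complexes, are ATP-driven machines that slide and evict nucleosomes and so open promoters and enhancers. Each complex holds 1 of the alternative ATPases SMARCA4 and SMARCA2. Canonical BAF and the PBAF subtype share a core that can include SMARCB1, SMARCC1, SMARCC2 and SMARCD1, and each adds large accessory subunits. The accessory subunits define the subtype. ARID1A and ARID1B are alternatives to each other in canonical BAF, and ARID2 and PBRM1 mark the PBAF subtype. The transcripts of 10 subunit genes are described here, chosen by gene name from the 47352 gene names of a window table. All 10 were present, and every window row under their names was read.

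The study compared an m6A IP library with an input library, 1 of each, from GM12878. This lymphoblastoid line of human B cells, immortalised by Epstein-Barr virus, was cultured with 15% serum, and fragmented total RNA went into a strand-specific protocol for both libraries. N6-methyladenosine (m6A) is a methylated adenosine placed in messenger RNA mostly near stop codons and within long internal exons. The IP library holds fragments recovered with an m6A antibody, and the input holds the unselected fragments. With 1 library in each group there is no replicate check, and no p-value, SD or test of a difference is given. The source given in 1 label is mouse embryonic stem cells, against a human line in the others. All 8 B cell markers were covered (summed mean coverage 1596 in the IP and 987 in the input), and none (0) of 6 pluripotency markers reached the input minimum (summed coverage 0.938 in the IP and 0.275 in the input).

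Coverage below is the mean scaled coverage per base of a window of 100 nt, with windows placed every 50 nt along each exon, so levels of different genes are per length. In the window score, IP and input are each divided by the median over the gene, after adding 1 to every coverage and median, and the log2 of the IP quotient over the input quotient is taken. Windows scoring 2 or more, which is 4-fold, are termed enriched, and a region is a run of at least 2 enriched windows. The gene-level score is the highest mean of 2 neighbouring windows. Measured genes are those whose input coverage averaged 1 or more. All 10 subunit genes were measured. Exons carry the numbers of the deposited table. These run along the genome, so in genes on the minus strand, such as PBRM1, the first exon number is the 3′ end.

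The subunit transcripts spanned a wide range of scores. The 4 large accessory subunits ARID1A, ARID1B, ARID2 and PBRM1 had gene-level scores between 4.76 and 5.01, while the ATPases and core subunits lay between 0.794 and 2.19. Of the 10 genes, 5 had a region, against 44.2% of 10756 measured genes and 75.4% of the 2048 measured genes with at least 100 windows. Of the 8 subunit genes that long, 5 had one. These shares lie near or below the background, so the count is no result about the group as a whole. The median gene-level score was 2.03 in the subunit genes and 1.81 in all measured genes, or 3.26 in those with at least 100 windows. Inside the group the scores ranged widely. The spread in other sets of 10 genes was not computed, so this range is a description only. Scores as high as those of the 4 accessory subunits were reached by 3.91% (ARID1A), 4.22% (ARID1B), 5.37% (ARID2) and 5.70% (PBRM1) of measured genes, whereas 82.2% scored at least as high as SMARCB1. These ranks are not matched for length. The 4 accessory subunits have 164 to 201 windows, against a median of 55 in measured genes. The ATPases and core subunits have 37 (SMARCB1) to 136 (SMARCA4), so each of them is shorter than each of the 4. Ranks among genes of like length were not computed.

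**Figure D1:**
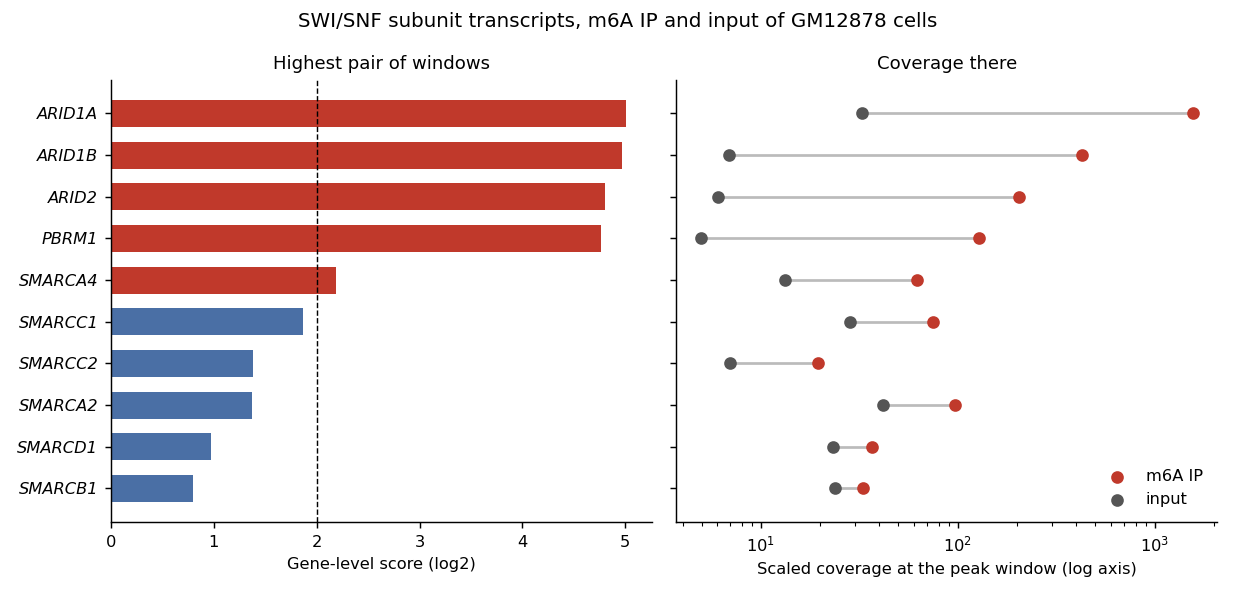
Left, gene-level score (log2) of each subunit transcript, in red where it had an enriched region and in blue where it had none, with the threshold of 2 dashed. Right, scaled coverage of the m6A IP and of the input at the peak window on a log axis, 1 library each. The 4 accessory subunits lie between 4.76 and 5.01. Input at the peak is 4.95 to 6.85 in PBRM1, ARID2 and ARID1B and 32.5 in ARID1A. It is 6.95 in SMARCC2 and 13.2 to 41.6 in the remaining genes.

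The order of input levels differed from the order of scores. SMARCB1 was the most abundant transcript, with a mean coverage of 22.7 in the IP and 29.5 in the input, followed by SMARCA2 (19.6 in the IP, 19.7 in the input) and ARID1A (79.2 in the IP, 15.1 in the input). SMARCA4 had 13.8 in the IP and 14.0 in the input, SMARCC1 had 11.7 and 11.6 in the same order, SMARCD1 had 7.79 and 9.55, and SMARCC2 had 11.3 and 9.18. ARID1B had 49.3 in the IP and 8.23 in the input. The PBAF subunits were the least abundant, PBRM1 with 7.85 in the IP and 3.45 in the input and ARID2 with 9.12 in the IP and 1.74 in the input. Over the whole transcript the IP thus exceeded the input 5.99-fold in ARID1B, 5.24-fold in ARID2, 5.23-fold in ARID1A and 2.27-fold in PBRM1, and 0.769 to 1.23-fold in the other 6. With a single pair of libraries it cannot be said which neighbours in these orders differ beyond the spread between samples.

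In the accessory subunits most IP coverage came from a small part of the transcript. The 30 enriched windows of ARID1A were 16.5% of its windows and held 74.5% of its coverage in the IP and 23.8% in the input. ARID1B had 29 enriched windows, with 72.6% of its coverage in the IP and 19.7% in the input. The 27 enriched windows of ARID2 held 71.9% in the IP and 28.2% in the input, and the 12 of PBRM1 held 62.6% in the IP and 11.2% in the input. Outside the enriched windows the ratio of IP to input coverage was 0.957 in PBRM1, close to the 0.930 of SMARCA4. It was 1.75 in ARID1A, 2.04 in ARID1B and 2.05 in ARID2, so IP signal above input also lay outside the called windows there. In exons of up to 5 windows the ratio was 0.87 in ARID1A, 1.02 in ARID1B, 0.70 in ARID2 and 0.967 in PBRM1, against a range of 0.644 to 1.17 in the other 6 genes. The ARID2 value rests on low coverage, 0.656 in the IP and 0.937 in the input.

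**Figure D2:**
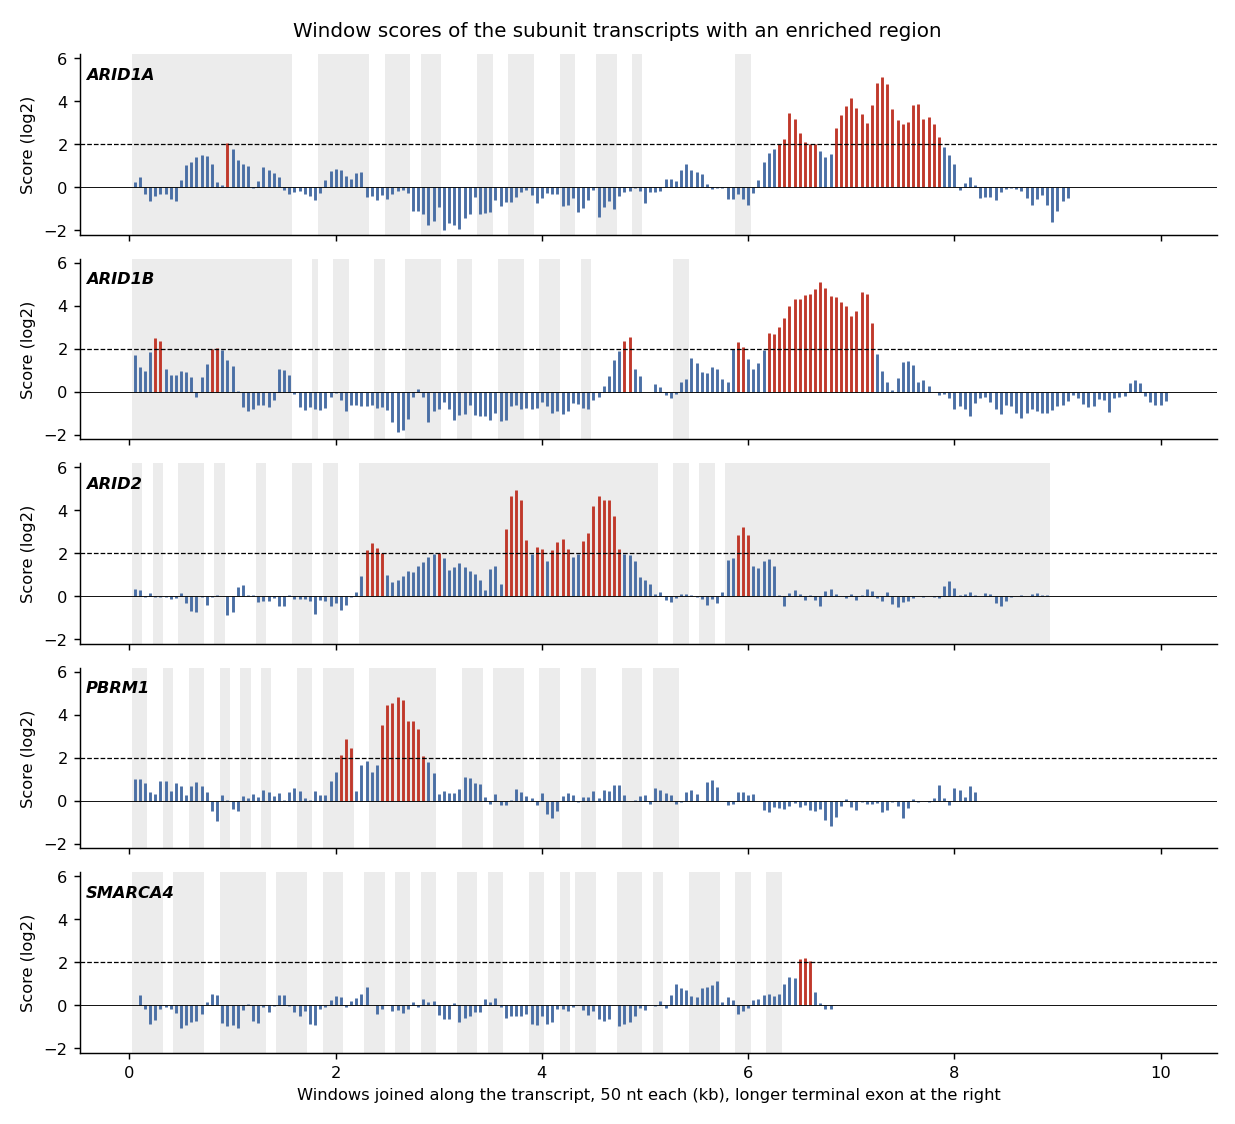
Window score (log2) along the 5 transcripts with an enriched region, windows joined in steps of 50 nt (kb) with the longer terminal exon at the right, grey and white bands marking exons. Red windows score 2 or more. Most enriched windows lie between 750 and 1900 nt behind the 5′ edge of the last exon in ARID1A and ARID1B, in a long internal exon in ARID2 and a shorter internal exon in PBRM1, and SMARCA4 has 3.

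ARID1A, which binds DNA through an AT-rich interaction domain and is often mutated in cancer, carried its enrichment in the last exon (exon 20, 62 windows). A first region of 8 windows ran from 250 to 700 nt behind the 5′ edge of that exon, and a second of 21 windows from 800 to 1900 nt. The highest window, 1250 nt behind the edge, had 1563 in the IP and 32.5 in the input, from about 15690 and 513 reads. This is a 48.1-fold ratio, with a 95% counting interval of 44.0 to 52.6. Outside the last exon a single window of exon 1 passed the threshold, at 2.06 with 103 in the IP and 18.1 in the input, and exon 18 stayed at 1.1 or lower over its 18 windows.

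ARID1B, the alternative to ARID1A, had 5 regions. Its last exon (exon 20, 93 windows) held a region of 21 windows from 750 to 1850 nt and a short one of 2 windows from 450 to 600 nt. The highest window, again 1250 nt behind the edge, had 428 in the IP and 6.85 in the input, a 62.4-fold ratio (51.7 to 76.4) from about 4298 and 108 reads. Exon 1 held 2 short regions, with 178 in the IP and 19.1 in the input at 200 to 300 nt and 106 in the IP and 15.3 in the input at 800 to 900 nt. Exon 18, an internal exon of 16 windows, held another with 135 in the IP and 13.8 in the input. Of its 29 enriched windows 23 lay in the last exon. The number of regions depended on the setting. At a threshold of 3 there were 3 in ARID1A and 1 in ARID1B, and with runs of at least 4 windows 2 in ARID1A and 1 in ARID1B.

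Lined up at the start of the last exon, the profiles of ARID1A and ARID1B were alike. Of the 62 windows that both exons have, 29 were enriched in ARID1A and 23 in ARID1B, and 22 were enriched in both, which is 75.9% of those of ARID1A and 95.7% of those of ARID1B. The highest window was number 26 in each. Across these 62 windows the scores had a Pearson correlation of 0.89, a description of neighbouring windows that overlap and come from the same 2 libraries. Lined up in the same way, the longer terminal exons of SMARCA4 and SMARCA2 gave -0.63 over 10 windows and those of SMARCC1 and SMARCC2 gave 0.25 over 39. Those exons held 3 enriched windows in SMARCA4 and 0 in SMARCA2, SMARCC1 and SMARCC2, so they give no contrast to the likeness of ARID1A and ARID1B. Unrelated genes with an enriched last exon were not compared. Windows 17 to 36 of ARID1A averaged 460 in the IP and 23.0 in the input, and windows 16 to 36 of ARID1B averaged 289 in the IP and 9.08 in the input. Behind them, windows 37 to 62 averaged 31.8 in the IP and 12.1 in the input of ARID1A, and 9.32 in the IP and 4.16 in the input of ARID1B. The last 31 windows of the longer ARID1B exon had 1.30 in the IP and 0.847 in the input, which leaves little depth to score them. The gene-level scores, 5.01 for ARID1A and 4.96 for ARID1B, differed by 0.05, and their order turned with 0.1 added before the logarithm or without centring. How reads that match more than 1 place were treated is not given in the sources used here, so part of the likeness of related exons could not be checked for shared reads.

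**Figure D3:**
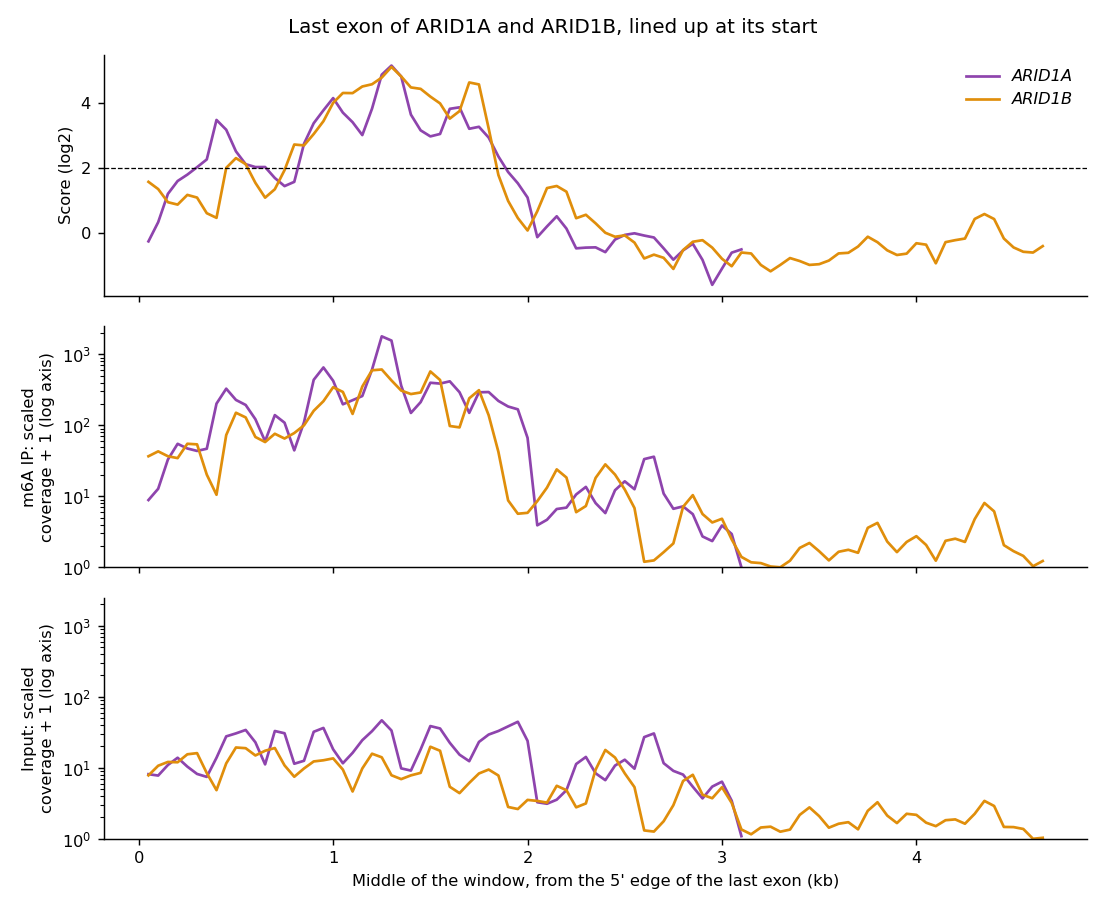
Score (top, log2), m6A IP coverage (middle) and input coverage (bottom), each coverage with 1 added on a log axis, along the last exon of ARID1A and ARID1B against distance from its 5′ edge (kb). Both scores peak in window 26, 1250 nt behind the edge, and stay under 2 beyond 1900 nt.

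ARID2, the AT-rich interaction subunit of PBAF, differed from its relatives in position. Its peak lay in an internal exon (exon 15) of 58 windows, which held 24 of its 27 enriched windows and 5 of its 6 regions. Window 16 of that exon, at 2.02, was enriched but lay in no region. ARID2 had 2 regions at a threshold of 3 and 2 with 5 added before the logarithm. Positions in it are counted from the edge with the lower window number. The highest window, 1500 to 1600 nt from that edge, had 205 in the IP and 6.04 in the input, a 34.0-fold ratio (27.7 to 42.3) from about 2060 and 95 reads. A separate summit at 2300 to 2400 nt had 74.7 in the IP and 2.16 in the input, a 34.6-fold ratio (24.6 to 50.4) that rests on about 34 input reads. Between these summits the scores stayed between 1.65 and 2.69 over windows 34 to 43, so that stretch was raised throughout. Other stretches of the exon were lower, such as windows 22 to 28 at 0.29 to 1.40. The longer terminal exon (exon 21, 63 windows) had 1 region of 3 windows near its inner edge, with 41.8 in the IP and 3.85 in the input. That exon averaged 2.62 in the IP and 0.836 in the input, which leaves little depth to score the rest of it.

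PBRM1, the polybromo subunit of PBAF whose bromodomains bind acetylated histones, had its peak in an internal exon (exon 14) of 13 windows. A region of 9 windows covered most of that exon and averaged 83.3 in the IP and 5.83 in the input. The highest window had 128 in the IP and 4.95 in the input, a 26-fold ratio (20.7 to 33.1) from about 1290 and 78 reads. A further region of 3 windows lay in exon 16, an exon of 6 windows with 22.3 in the IP and 3.19 in the input at its peak. Exon 15 between them, of 3 windows, reached 1.87. At a threshold of 3, with runs of at least 4 windows and with 5 added before the logarithm, 1 region was left, and that in exon 16 was lost. The last exon of PBRM1, although it has 58 windows, held no enriched window. It averaged 2.26 in the IP and 3.0 in the input, and its highest score was 0.98. Among measured genes with a region, 72.4% had their highest pair of windows in the longer terminal exon and 19.0% in an internal exon, the placement seen in PBRM1 and ARID2.

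SMARCA4, the ATPase also called BRG1, had a single region that only just passed the threshold. Its 3 windows in the last exon (exon 36, 10 windows) scored 2.09 to 2.22, with 62.1 in the IP and 13.2 in the input at the highest. The ratio was 4.7-fold (4.01 to 5.51). The region was lost at a threshold of 3, with runs of at least 4 windows and with 5 added before the logarithm. SMARCA2, the alternative ATPase also called BRM, had none (0) among 135 windows. Its last exon of 19 windows reached 0.37, with 10.2 in the IP and 14.4 in the input on average. The highest pair of SMARCA2 lay in exon 28, an internal exon of 5 windows, with 97.0 in the IP and 41.6 in the input, a 2.33-fold ratio (2.11 to 2.58). The gene-level scores were 2.19 for SMARCA4 and 1.37 for SMARCA2, a difference of 0.81 that stayed between 0.58 and 0.98 under the other settings tried.

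The core subunits had no region. SMARCC1 came closest with a gene-level score of 1.87. Its highest window, in the longer terminal exon and 150 nt from the inner edge, had 74.4 in the IP and 28.4 in the input, a 2.63-fold ratio (2.33 to 2.96). Its paralog SMARCC2, which pairs with SMARCC1 as a scaffold of the complex, scored 1.38. There the highest window lay in an internal exon of 3 windows, with 19.5 in the IP and 6.95 in the input (2.81-fold, 2.21 to 3.57). In its longer terminal exon the highest score was 1.23, at 250 nt from the inner edge, with 67.8 in the IP and 31.0 in the input. With 0.1 added before the logarithm the order of the pair turned, SMARCC1 scoring 1.97 and SMARCC2 2.27.

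SMARCD1, a core subunit that contacts transcription factors, had a long last exon of 36 windows without enrichment. That exon averaged 12.1 in the IP and 13.4 in the input, and its highest window had 36.7 in the IP and 23.3 in the input (1.58-fold, 1.36 to 1.83). SMARCB1, the core subunit lost in rhabdoid tumours, had the shortest transcript, with 37 windows and no exon over 8 windows. Its highest window had 33.1 in the IP and 23.9 in the input (1.39-fold, 1.19 to 1.61). The input at the highest window came from about 368 reads in SMARCD1 and 376 in SMARCB1.

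**Figure D4:**
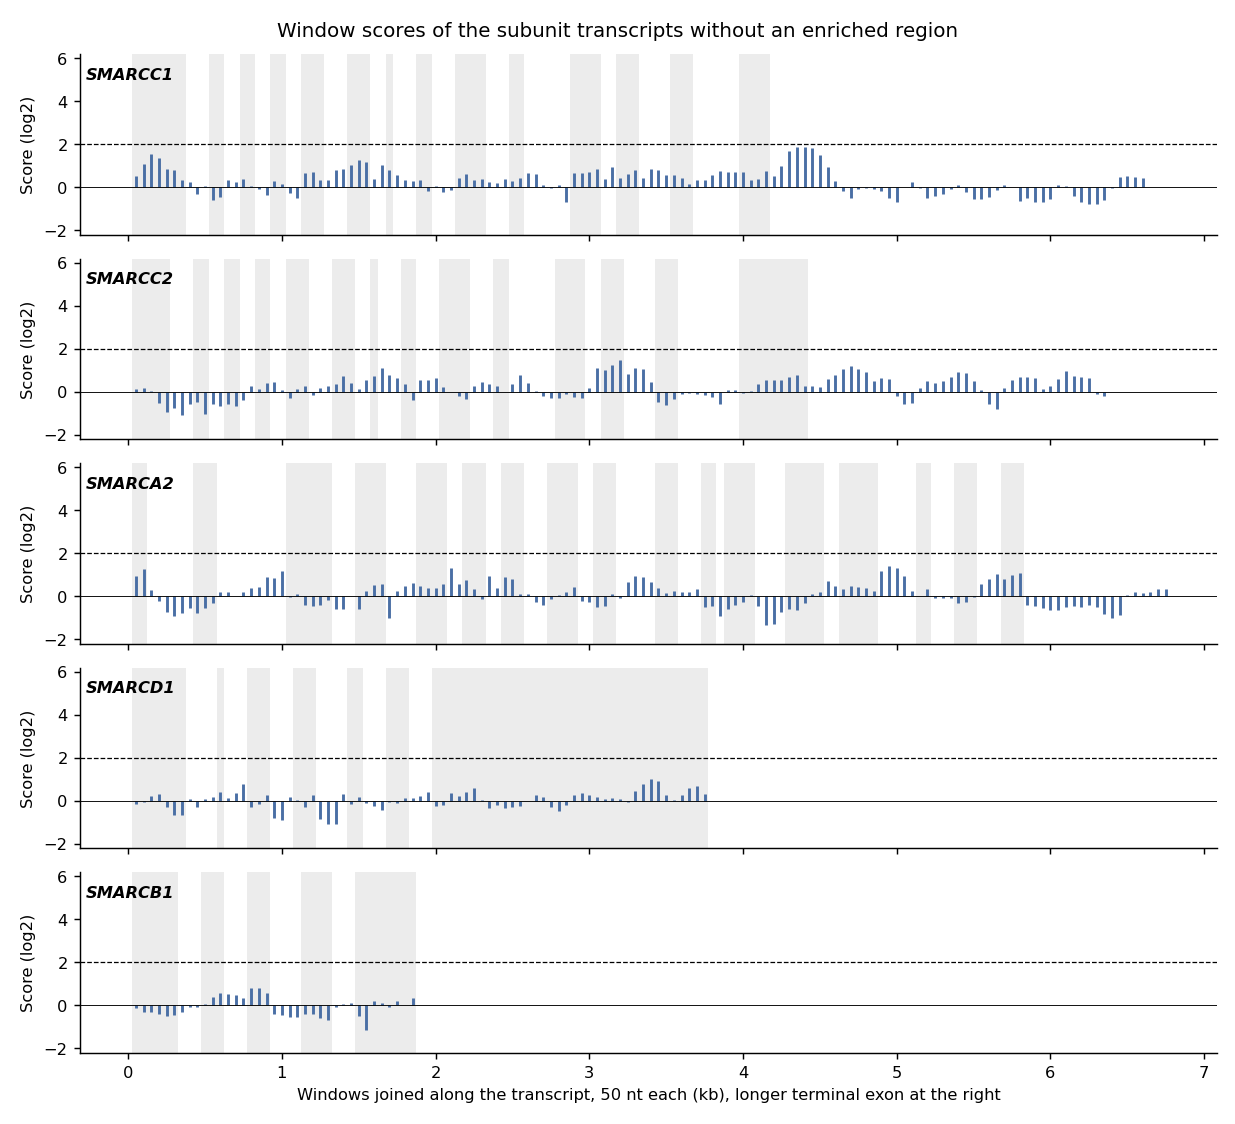
Window score (log2) along the 5 transcripts without an enriched region, drawn as for the enriched ones. No window reaches 2, and the highest scores are a run near the inner edge of the longer terminal exon of SMARCC1, up to 1.88.

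Exon length separated the enriched from the other exons of the 10 transcripts, though not fully. The transcripts have 239 exons, of which 10 held an enriched window. Among 14 exons of over 10 windows 8 did, against 50.1% of such exons in measured genes, and among 225 shorter exons 2 did, against 0.954%. None (0) of 201 exons of up to 5 windows held one, against 0.265% of exons of that length in measured genes, and the same holds for the 197 internal ones among them, against 0.144%. Of 18 internal exons of 6 to 10 windows 1 did, in PBRM1, against 10.7%, and of 3 internal exons of 11 to 20 windows 2 did, in ARID1B and PBRM1, against 60.8%. The only internal exon over 20 windows, in ARID2, did, against 79.2%. Of 2 longer terminal exons of 6 to 10 windows 1 did, in SMARCA4, against 12.2%, and the 1 of 11 to 20 windows, in SMARCA2, did not, against 33.3%. The shares in long and short exons are near their background. Exons of over 10 windows held 95 of the 101 enriched windows. The 6 long exons without one were exon 18 of ARID1A, the last exons of SMARCA2, SMARCD1 and PBRM1, and the longer terminal exons of SMARCC1 and SMARCC2. Of exons over 20 windows, 3 of 7 longer terminal ones held an enriched window, against 58.2% in measured genes. Both first exons of that length did, in ARID1A and ARID1B, against 49.2% of shorter terminal exons. Of all windows of the 10 transcripts 7.39% were enriched, against 5.75% in measured genes and 2.64% over the kept listings of all genes.

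**Figure D5:**
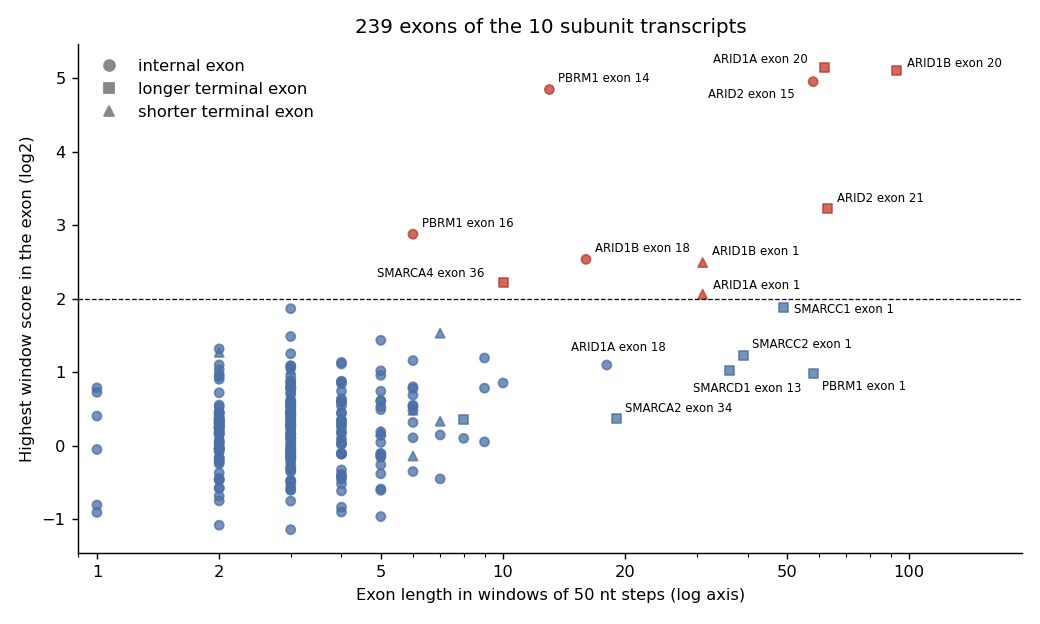
Highest window score (log2) of each of the 239 exons against its length in windows (log axis), by exon kind, in red where at least 1 window scored 2 or more. The enriched exons have 6 to 93 windows, and none of the 201 exons of up to 5 windows reaches the threshold of 2 (dashed).

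The other subunits of SWI/SNF complexes showed a like range. Of a list of 19 genes 15 were measured, and 8 of these (53.3%) held a region, against 44.2% of all measured genes. The median score was 2.08. KIAA0240, the older symbol of BICRAL, a subunit of the non-canonical BAF complex, scored highest at 5.74, with 329 in the IP and 3.77 in the input in an internal exon of 34 windows. SS18, the subunit fused to SSX proteins in synovial sarcoma, scored 4.43 with 179 in the IP and 7.38 in the input, and BCL7B scored 3.55 with 128 in the IP and 5.54 in the input, both in the longer terminal exon. The lowest were DPF2 at 0.72 and the bromodomain subunit BRD7 at 0.73. Both are accessory subunits too, and with centring they scored below each of the 10 genes. Without centring DPF2 (0.253) stayed below all 10, but BRD7 (0.626) lay above SMARCD1 (0.573) and SMARCB1 (0.452). A high score is thus not shared by accessory subunits in general. In a list of 23 ATPases and large subunits of other chromatin remodellers, 15 of 20 measured genes (75.0%) held a region, against 75.4% of measured genes with at least 100 windows, whose median score was 3.26. The median score was 2.03 in the 10 SWI/SNF genes and 3.66 in this list, with a median length of 135.5 windows in the 10 genes and 182.5 in the list. Chosen by the same rule, RSF1 (6.71), CHD7 (5.63) and CHD9 (5.54) scored highest, and SMARCA5 (1.13), the ATPase of ISWI complexes, and HELLS (1.23) lowest.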

How the data were processed

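Per the submitters' processing notes, reads were mapped with TopHat 1.1.3 to hg19. Which annotation and coverage program were used is not given in the sources used here. Per the file headers, the authors deposited 1 table of 3335372 windows with the coverage signal of IP and input, the median signal of the gene in each, and a log2 window score. The scale of the coverage signal is not given per library in the deposited table. In each library 100.0% of values above 0 were whole multiples of 1 step within 0.01 step, and lone reads fitted 36 nt and windows 50 nt apart (50.4 nt from the IP, 50.7 nt from the input). The depth on 1 listing per gene was thus about 56900000 reads in the IP and 50300000 in the input. Scores recomputed from the 4 other columns differed from the deposited log2 score by over 1e-09 in 0 windows. All scores printed are recomputed.

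Tables were handled with pandas 2.3.3 and numpy 2.4.6 in Python 3.11.15, intervals with scipy 1.17.1, and plots with matplotlib 3.10.9. The longest listing per gene was kept. Gene names under which the kept listing had under 2 windows (95) were left out of counts. Ratios at a peak carry exact (Clopper-Pearson) 95% intervals from the reads that the steps imply. They cover counting error only, and take reads as independent, which copies of a read made by PCR are not. Neither the spread between libraries nor the choice of the highest window is covered. Strand was taken from RefSeq promoters (GRCh38.p14), which list 7 of the 10 genes. Among genes on the plus strand the last-numbered terminal exon was the longer in 92.4% of 5182, and on the minus strand in 8.3% of 4988. Windows carry no coordinates, and none are given.

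Every one of the 10 genes is named. From each further list the 3 highest and 2 lowest measured genes are named. Members, lists and settings were chosen with earlier results of these data known. Exon-level and paralog descriptions were picked after their values were seen. Region calling was also checked on simulated data. Alternatives covered the threshold, the run length, the number added, centring, the gene median, the listing and windows of low input.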

Additional observations from a re-analysis of the deposited data

How the results depend on the processing

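The count of subunit genes with a region was 5, and 8 at a threshold of 1, where 71.4% of measured genes had one. Under the 8 other alternatives it was 4 or 5, with SMARCA4 the gene lost. Enriched windows numbered 101, and 225 at a threshold of 1 and 56 at a threshold of 3. The median gene-level score of 2.03 moved to 2.29 with 0.1 added before the logarithm, 1.71 with 5 added and 1.73 without centring (all measured genes 2.19, 1.33 and 1.79). The difference ARID1A minus ARID1B reversed to -0.038 with 0.1 added and -0.22 without centring, and SMARCC1 minus SMARCC2 reversed to -0.30 with 0.1 added. For these the cause was not tested. Over the 4 alternatives that changed a score of any of the 10 genes, ARID1A, ARID1B, ARID2 and PBRM1 stayed between 3.86 and 5.62, SMARCA4 between 1.84 and 2.31 and the other 5 between 0.452 and 2.27. No paired analysis was possible because each group has 1 library. Low input limits ARID2, whose second summit rests on 34 input reads, and the distal last exon of ARID1B. In ARID2 the input averaged 0.836 in the longer terminal exon and 0.937 in exons of up to 5 windows.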
